A study of Homo sapiens with 18 samples.

Results

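The MYC network was examined in SH-SY5Y cells through 10 genes: MYC, MYCN and MYCL, their partner MAX, the MAX-binding antagonists MXD1, MXD3, MXD4 and MNT, the polyamine enzyme gene ODC1 and the RNA-binding protein gene LIN28B. They were taken by gene symbol from a table of 26372 genes, with no filter on their values, and all 10 were in the table. The choice of genes was made with earlier results of these data known.

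MYC, MYCN and MYCL are helix-loop-helix leucine zipper transcription factors that bind DNA as heterodimers with MAX, mainly at the E-box CACGTG, and raise the transcription of genes for growth, ribosome assembly and nucleotide synthesis. MXD proteins and MNT compete for MAX and recruit SIN3 and histone deacetylases to the same sites. ODC1, the first enzyme of polyamine synthesis, is a classical MYC target, and LIN28B blocks maturation of let-7 microRNAs, which in turn target MYCN and LIN28B transcripts. In neuroblastoma, amplification of MYCN marks aggressive tumours, and SH-SY5Y is a neuroblastoma line without that amplification.

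The cells carried lentiviral plasmids derived from FUGW that encode ZNHIT3, a zinc-finger protein with a role in box C/D snoRNP assembly, either as wild type (WT), as C14R or with a small internal deletion. The deletion starts at 251, and its end is written as 254, 255 or 256 on different library labels. Each of these 3 lines was sampled at day 0 and at day 18, with 3 libraries in each of the 6 groups. Before induction the cells grew in 15% fetal bovine serum. The virus was added a day after plating, and 48 h later the medium was changed to serum-free neurobasal/B27 with all-trans retinoic acid at 10 µM, dibutyryl cyclic AMP at 2 mM, KCl at 20 mM and BDNF at 50 ng/ml, for 18 days. Day, loss of serum and the added agents therefore cannot be told apart. Every library is labelled with a construct, so WT stands for added ZNHIT3 rather than for untreated cells. The labels do not say whether day 0 RNA was taken before or after infection. ZNHIT3 already differed between the lines at day 0, with the values given below. Whether infection also differs between the days was not tested. The labels do not say whether libraries of a group came from separate cultures, so p-values measure the spread between these libraries, which may be technical.

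No ZNHIT3 library of a line overlapped those of another line at the same day. Its level was 538 ± 6.33 FPKM (fragments normalised to transcript length and library size; mean ± SD, n = 3) in WT cells at day 0, where C14R cells had 424 ± 7.09 and deletion cells 303 ± 9.4. At day 18 the values were 1153 ± 46.1, 653 ± 88.9 and 302 ± 9.89. By limma the lines differed at each day (adjusted p at most 0.006) except C14R from WT at day 0 (-0.34, adjusted p = 0.35). The table does not separate endogenous from construct transcripts. Depth in reads is unknown, but the steps between low values put the day 0 libraries at 59 to 84.1% and the day 18 libraries at 81.8 to 100% of the deepest library. Defining markers of the labelled noradrenergic neuroblastoma line were present in part: DBH, the enzyme that makes noradrenaline, lay between 56.2 and 69.2 FPKM at day 0 and between 288 and 476 at day 18, SOX10 never exceeded 0.477 and HBB was listed at 0. TH, the enzyme that defines catecholamine cells, averaged under 0.1 FPKM at day 0 but not at day 18. Over all libraries its mean was 0.336 FPKM and its highest value 1.02, and it was not tested.

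Short stretches around E-boxes near transcription start sites show which members carry, within the windows searched, the sequence that proteins of the network bind. Sites outside these windows were not looked for. In RefSeq windows from 250 bases before to 50 after each start (GRCh38.p14), 9 of the 10 members had a window, and MYC was the exception. CACGTG, which reads the same on both strands, was found for 4 members, in 4 of 12 windows. Over all genes, 7.26% of 35116 windows hold it, and 9.02% of the windows of genes tested here. The hexamer is in capitals, and each stretch is written 5′ to 3′ on the strand of the gene:
ODC1, first site: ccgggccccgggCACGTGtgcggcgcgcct
ODC1, second site: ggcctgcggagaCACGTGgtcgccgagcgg
MXD4: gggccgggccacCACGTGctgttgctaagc
LIN28B: aattgacaaagtCACGTGtgctcagggggc
MNT: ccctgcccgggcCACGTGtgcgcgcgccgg

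The ODC1 stretches are chr2:10448024-10448053 and chr2:10447990-10448019 on the minus strand, with the first base of the hexamer at -29 and 6 from the RefSeq start, both in an intron of the longer GENCODE 29 gene model. The MXD4 stretch is chr4:2262330-2262359 (minus strand, hexamer at -238) and the MNT stretch chr17:2401236-2401265 (minus strand, hexamer at -193), both upstream of the gene. The LIN28B stretch is chr6:104957048-104957077 (plus strand, hexamer at -47), in an untranslated exon.

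MYCN had no CACGTG in its window but an E2F-type site, the kind bound by the factors that drive entry into DNA synthesis. The motif searched was TTTCGCGC or TTTGGCGC on both strands, present in 1.15% of all windows and 1.71% of those of tested genes. It lies upstream of the gene at chr2:15940362-15940393 (plus strand, first motif base at -176), with the match in capitals. A second match on the other strand overlaps it, at -172. A match describes the letters and says nothing of binding in these cells.
MYCN: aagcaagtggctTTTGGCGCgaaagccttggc

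The main change was between days. MYC, MYCN, MXD3 and ODC1 fell and MNT rose in all 3 lines, by limma on log2(FPKM + 1) over 13785 genes, with Benjamini-Hochberg adjustment and a threshold of 0.05. In WT, 1 member was higher and 4 were lower at day 18, where 38.2% of all tested genes were higher and 34% lower. In C14R cells 2 were higher and 6 lower, against 37.9% and 35% of all genes, and in deletion cells 2 were higher and 4 lower, against 38.6% and 34.4%. With so many genes changed, a call alone sets no member apart, and the sizes differed widely. All 10 members passed the filter of a mean of 1 FPKM, MYC through its day 0 libraries alone.

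The scale matters for small changes. Leaving out small RNA genes and rescaling each library moved the median day change of all genes from 0.03, 0.02 and 0.03 to 0.23, 0.20 and 0.24 (log2, WT, C14R and deletion), and the percentage of called genes that were higher from 52.9, 52 and 52.8% to 68.4, 66.2 and 69.3%. The members then counted 3 higher and 4 lower in WT, 2 and 3 in C14R, and 4 and 4 in deletion cells. MYC, MXD3 and ODC1 stayed lower and MNT higher in each line on that scale. MYCN stayed lower in WT and deletion cells. These are bulk libraries, in which fewer cells of a type and less RNA per cell cannot be told apart.

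**Figure D1:**
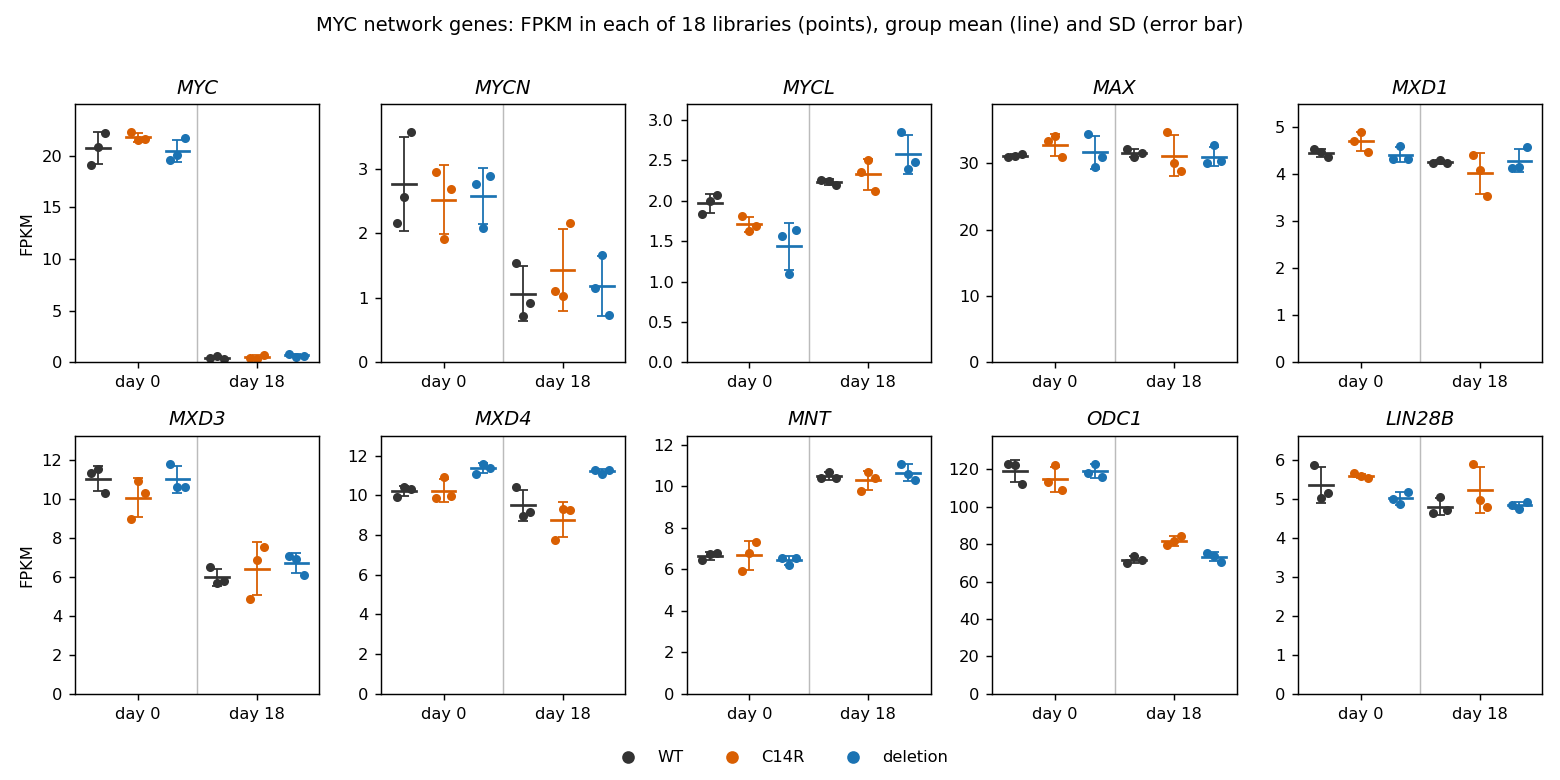
FPKM (linear axes from 0, 1 panel per gene) of the 10 members at day 0 and day 18 in WT (black), C14R (orange) and deletion cells (blue); points are libraries, lines group means and error bars the SD of 3 libraries. MYC lies between 19.1 and 22.3 FPKM at day 0 and between 0.318 and 0.846 at day 18, while MAX lies between 28.8 and 34.7 throughout.

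MYC, the broadly expressed family member, fell most. In WT the 3 libraries read 19.1, 20.9 and 22.2 FPKM at day 0, then 0.454, 0.583 and 0.318 at day 18. C14R cells gave 22.3, 21.5 and 21.6 at day 0, then 0.392, 0.343 and 0.704 at day 18. Deletion cells gave 19.6, 20.1 and 21.7, then 0.846, 0.511 and 0.664. Every day 18 library was below 1 FPKM and every day 0 library above 19, so the days were far apart in each line. The means fell 46-fold in WT, 45.5-fold in C14R and 30.3-fold in deletion cells. On the log2(FPKM + 1) scale, which understates a fall to such low values, the changes were -3.91, -3.95 and -3.68 (SE 0.10, limma adjusted p = 7.2e-16, 6e-16 and 1.4e-15). With a pseudocount of 0.1 the WT value was -5.27. MYC lies at chr8:127735434-127741434 on the plus strand, and no exon of another gene overlaps it.

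Genes of dividing cells fell over the same days. Summed over 10 such genes (MKI67, TOP2A, CCNB1, CDK1, PCNA, MCM2, AURKB, BIRC5, BUB1 and RRM2), the FPKM ran from 453 to 497 with a median of 483 at day 0, and from 155 to 204 with a median of 167 at day 18. All 10 were lower in each line, with median changes of -1.61 in WT, -1.38 in C14R and -1.42 in deletion cells. Over all genes tested the medians were 0.03, 0.02 and 0.03, and 34, 35 and 34.4% were lower. RRM2, a subunit of ribonucleotide reductase, went from 51.8 to 10.5 FPKM in WT and BIRC5, a mitotic regulator, from 32.3 to 7.91. Of 6 tested mesenchymal and fibroblast markers 5 fell in each line, and 1 rose in WT. Summed over all 8, the median went from 162 FPKM (152 to 192) to 19.4 (16.1 to 22.1). FN1 and CD44, a matrix protein and a cell-surface hyaluronan receptor, had the largest falls. The part of either list in the fall of MYC was not tested.

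MYCN, the neuroblastoma oncogene, was an order lower than MYC at day 0. WT libraries read 2.16, 2.56 and 3.57 FPKM at day 0, then 1.54, 0.727 and 0.927 at day 18. C14R libraries read 2.95, 1.92 and 2.69, then 1.1, 1.03 and 2.16, and deletion libraries 2.77, 2.09 and 2.89, then 1.15, 1.67 and 0.729. The days were separate in WT and deletion cells, and 1 C14R library of day 18 lay within the day 0 range. The change was -0.87 in WT (SE 0.20, limma adjusted p = 0.00099), -0.55 in C14R (adjusted p = 0.021) and -0.73 in deletion cells (adjusted p = 0.0039). The C14R call was lost without small RNA genes (-0.56, adjusted p = 0.061), with array weights (-0.33, adjusted p = 0.12), and on leaving out C14R day 0 replicate 1 (adjusted p = 0.081) or 3 (0.061), or C14R day 18 replicate 1 (0.078) or 2 (0.092). MYCN (chr2:15940564-15947007, plus strand) shares 98 exonic bases with its antisense gene MYCNOS, and the strand setting of the counting is not given in the sources used here. MYCNOS itself never exceeded 0.373 FPKM.

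MYCL, the family member first found in small cell lung cancer, went the other way. It read 1.84, 2 and 2.07 FPKM in WT at day 0, then 2.26, 2.24 and 2.19 at day 18. In C14R cells it read 1.81, 1.63 and 1.69, then 2.36, 2.5 and 2.12, and in deletion cells 1.57, 1.1 and 1.64, then 2.85, 2.39 and 2.48. In each line every day 18 library was above every day 0 library. The change passed the test in C14R (0.29, SE 0.09, limma adjusted p = 0.0075) and deletion cells (0.56, adjusted p = 2.7e-05). In WT it was 0.12 with a 95% interval of -0.07 to 0.31 (adjusted p = 0.23), and 0.33 (adjusted p = 0.018) without small RNA genes. MYCL (chr1:39895426-39902256, minus strand) shares 226 exonic bases with an antisense gene, AL033527.2.

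The make-up of the family turned over. MYC gave 81.5% of the summed FPKM of MYC, MYCN and MYCL in WT at day 0 and 12.1% at day 18, while MYCL went from 7.73% to 60%. In C14R cells MYC went from 83.8 to 11.1% and MYCL from 6.57 to 56.1%, with 42.5% in C14R day 18 replicate 3, where MYCN stood slightly above it. In deletion cells MYC went from 83.6 to 15.3% and MYCL from 5.85 to 58.4%. MYCN made up 9.64 to 10.7% of the sum at day 0 and 26.4 to 32.8% at day 18. A scaling factor per library leaves these shares as they are.

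**Figure D2:**
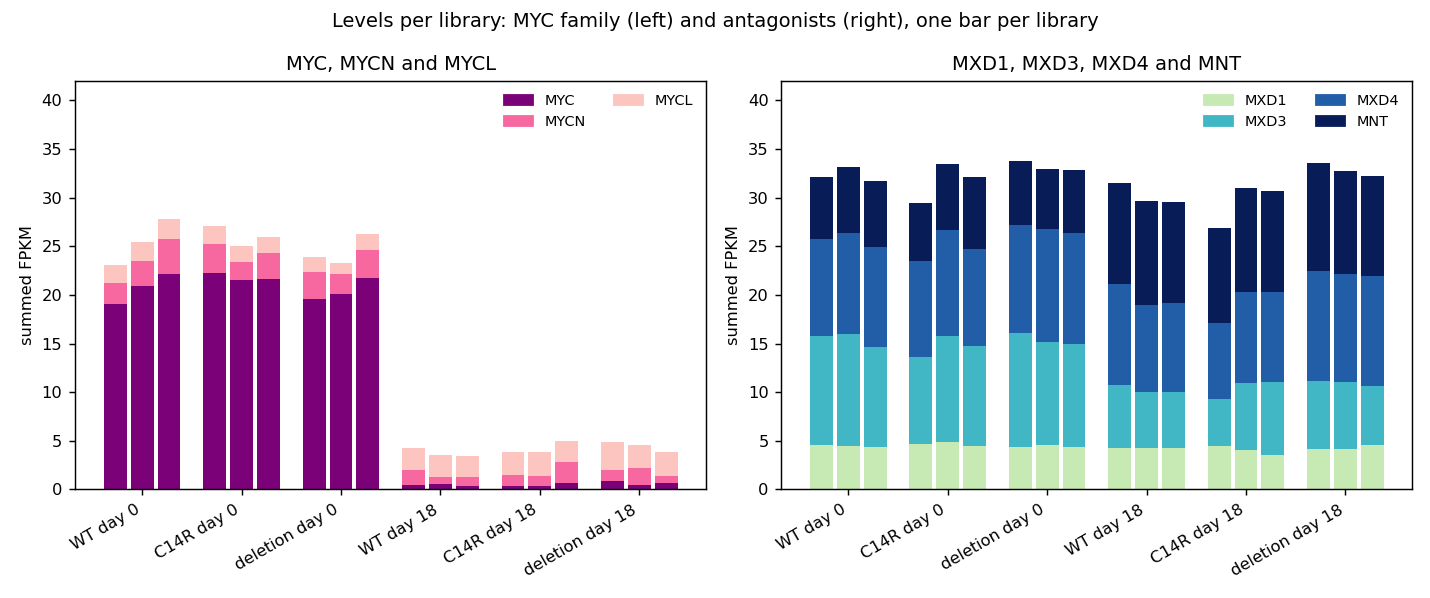
Stacked FPKM of MYC, MYCN and MYCL (left) and of MXD1, MXD3, MXD4 and MNT (right), 1 bar per library and 3 libraries per group. The family sum averages 24.5 to 26 at day 0 and 3.74 to 4.43 at day 18, where MYCL averages 56.1 to 60% of it and the lowest library is C14R replicate 3 with 42.5%, and the antagonist sum averages 29.5 to 33.2 over the groups.

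MAX, the obligate partner of both arms, was level. WT libraries read 30.9, 31.1 and 31.4 FPKM at day 0, then 32.2, 31 and 31.6 at day 18, C14R libraries 33.4, 34.1 and 30.9, then 34.7, 30 and 28.8, and deletion libraries 34.4, 29.5 and 31, then 30, 32.7 and 30.3. The days overlapped in every line. The WT change was 0.02 with a 95% interval of -0.12 to 0.15 (limma adjusted p = 0.79), and those of C14R and deletion cells were -0.07 and -0.03 (adjusted p = 0.3 and 0.73). Without small RNA genes MAX was called higher in WT (0.23) and the deletion value turned to 0.19, in both cases close to the shift of all genes on that scale. In C14R cells it was called lower with array weights (-0.15, adjusted p = 0.017) and without C14R day 18 replicate 1 (-0.15, adjusted p = 0.025). MAX (chr14:65006174-65102695, minus strand) shares 184 exonic bases with the antisense gene AL139022.1.

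Among the antagonists, MNT and MXD3 moved in opposite directions. MNT, the widely expressed antagonist found also in dividing cells, rose from 6.43, 6.74 and 6.8 FPKM to 10.4, 10.7 and 10.4 in WT. It rose from 5.93, 6.77 and 7.33 to 9.78, 10.7 and 10.4 in C14R cells and from 6.53, 6.2 and 6.57 to 11.1, 10.6 and 10.3 in deletion cells. The libraries of the days did not overlap in any line. The changes were 0.59, 0.56 and 0.65 (SE 0.06, limma adjusted p = 1.7e-07, 3.2e-07 and 4.7e-08), or 1.58-, 1.54- and 1.66-fold. MNT (chr17:2384060-2401118, minus strand) shares 1065 exonic bases with the antisense gene AC006435.1.

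MXD3, an antagonist known to be expressed in cells in S phase, fell. In WT it went from 11.3, 11.5 and 10.3 FPKM to 6.48, 5.69 and 5.76. In C14R cells it went from 8.94, 10.9 and 10.3 to 4.88, 6.87 and 7.51, and in deletion cells from 11.8, 10.6 and 10.6 to 7.06, 6.9 and 6.1. Again the days were apart in all lines, with changes of -0.78, -0.59 and -0.64 (SE 0.11, limma adjusted p = 5e-06, 0.00012 and 4.7e-05). The means fell 1.84-, 1.57- and 1.64-fold, over the same days as the genes of dividing cells above, whose part in it was not tested. MXD3 (chr5:177301461-177312757, minus strand) shares 926 exonic bases with RAB24 on its strand and 1158 with PRELID1 on the other, so its level is uncertain where the counting had to divide reads.

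MXD1, the antagonist induced when many cell types differentiate, was not among the genes that rose. Its WT libraries read 4.53, 4.48 and 4.36 FPKM at day 0, then 4.24, 4.31 and 4.24 at day 18, a change of -0.05 (95% interval -0.19 to 0.09, limma adjusted p = 0.51) although the days did not overlap, and 0.13 without small RNA genes. Deletion cells gave 4.33, 4.6 and 4.33, then 4.14, 4.16 and 4.58, a change of -0.03 (adjusted p = 0.65). C14R cells gave 4.72, 4.9 and 4.48, then 4.42, 4.1 and 3.54, which passed the test (-0.19, adjusted p = 0.02). That call was lost without small RNA genes (-0.04, adjusted p = 0.68), in a fit of those libraries alone (adjusted p = 0.11), and without C14R day 0 replicate 2 (0.074) or C14R day 18 replicate 3 (-0.12, 0.13). MXD1 (chr2:69897688-69942945, plus strand) shares 237 exonic bases with SNRNP27.

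MXD4, another MAX-binding repressor, read 9.92, 10.4 and 10.3 FPKM in WT at day 0, then 10.4, 8.97 and 9.14 at day 18, with overlapping days. Deletion cells gave 11.1, 11.6 and 11.4, then 11.3, 11.1 and 11.3, so the level hardly moved (-0.01, limma adjusted p = 0.89). Without small RNA genes MXD4 was called higher there (0.20, limma adjusted p = 0.011), close to the shift of all genes on that scale. C14R cells gave 9.85, 10.9 and 9.98, then 7.77, 9.31 and 9.25, a fall of 0.20 on the log2 scale (adjusted p = 0.01) that was lost without small RNA genes (-0.04, adjusted p = 0.63), in a fit of those libraries alone (0.065), and without C14R day 0 replicate 2 (0.054) or C14R day 18 replicate 1 (-0.13, 0.061). In WT the change of -0.10 did not pass (adjusted p = 0.19), but did with array weights (-0.13, adjusted p = 0.025) and without WT day 18 replicate 1 (-0.16, adjusted p = 0.048). MXD4 lies at chr4:2247432-2262294 on the minus strand and contains MIR4800.

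Summed, the 4 antagonists among the members differed far less between days than the family. MXI1, a further MAX-binding antagonist with a higher FPKM than any of them, is not among the members. For WT cells the antagonist sum was 32.3 ± 0.73 FPKM (SD, n = 3) at day 0 and 30.3 ± 1.08 at day 18. It was 31.7 ± 2.04 and 29.5 ± 2.32 in C14R cells, and 33.2 ± 0.487 and 32.9 ± 0.725 in deletion cells. With MXI1 added, a choice made after seeing the data, the sums went up instead, from 53.5 ± 1.44 to 58.9 ± 0.288 in WT, from 51.8 ± 1.16 to 57.8 ± 1.7 in C14R and from 53.2 ± 0.814 to 60.9 ± 0.902 in deletion cells. Rescaled without small RNA genes, the sum of 4 in WT also went up, from 73.5 to 79.5, as did those of the other lines. The family sum went from 25.5 ± 2.33 to 3.74 ± 0.443 in WT, from 26 ± 0.973 to 4.24 ± 0.649 in C14R and from 24.5 ± 1.56 to 4.43 ± 0.501 in deletion cells. The ratio of family to antagonists, which a scaling factor per library leaves as it is, was 0.789 ± 0.0804, 0.826 ± 0.0852 and 0.737 ± 0.0521 at day 0 and 0.124 ± 0.01, 0.144 ± 0.0188 and 0.135 ± 0.0127 at day 18. With MXI1 it was 0.477, 0.503 and 0.46, then 0.0636, 0.0734 and 0.0728. Set against MAX, the family stood at 0.776 to 0.818 of its FPKM at day 0 and 0.118 to 0.143 at day 18. Within the 4 antagonists the share of MNT went from 20.6 to 34.8% in WT and that of MXD3 from 34.1 to 19.7%, or from 12.5 to 17.9% and from 20.6 to 10.1% with MXI1 included. These sums are of transcripts, not of proteins, and were given no test.

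ODC1 was the most abundant member in every group, and it fell. WT libraries read 123, 122 and 112 FPKM at day 0, then 69.8, 73.5 and 71.6 at day 18. C14R libraries read 113, 122 and 109, then 79.3, 81.7 and 84.5, and deletion libraries 118, 123 and 116, then 75.4, 73.8 and 70.5. The days were well apart in each line. The means fell 1.66-fold in WT, 1.4-fold in C14R and 1.62-fold in deletion cells, with log2 changes of -0.72, -0.48 and -0.69 (SE 0.05, limma adjusted p = 2.3e-10, 5.5e-08 and 4e-10). ODC1 lies at chr2:10439968-10448504 on the minus strand, and no exon of another gene overlaps it. The fall was small beside that of MYC: ODC1 at day 18 was still above MAX in every library.

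Of 15 other genes of polyamine metabolism, all tested, 6 rose and 4 fell in WT, 5 rose and 5 fell in C14R, and 5 rose and 4 fell in deletion cells. The median changes were -0.02, 0.08 and 0.11, close to those of all genes, of which 37.9 to 38.6% rose and 34 to 35% fell. AMD1 and SRM, which act with ODC1 on the way to spermidine, fell in WT from 36.4 to 18.5 FPKM (-0.94, limma adjusted p = 1.5e-11) and from 41.8 to 24.4 (-0.76, adjusted p = 1.1e-07). In WT the largest rises were in both antizyme inhibitors, proteins that protect ODC1 from antizyme. AZIN1 rose from 69.3 to 139 FPKM (1.00, adjusted p = 9.3e-14) and AZIN2 from 1.55 to 3.26 (0.75, adjusted p = 0.0001). All 4 genes went the same way in the other lines. OAZ2, an antizyme that acts against ODC1 and is named here after its value was seen, rose too, from 49.4 to 78.4 FPKM in WT (0.65, adjusted p = 3.7e-09). It rose by 0.63 in C14R and 0.69 in deletion cells, where AZIN2 rose by 0.51 and 0.49.

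LIN28B did not pass the test in any line. It read 5.89, 5.03 and 5.16 FPKM in WT at day 0, then 4.64, 5.07 and 4.73 at day 18. C14R cells gave 5.67, 5.59 and 5.55, then 5.92, 4.99 and 4.81, and deletion cells 5, 4.88 and 5.19, then 4.85, 4.76 and 4.93. The days overlapped in each line, with changes of -0.13 (95% interval -0.28 to 0.02, limma adjusted p = 0.11), -0.09 (adjusted p = 0.28) and -0.04 (adjusted p = 0.6), and the WT value was 0.05 without small RNA genes. In C14R cells it was called lower with array weights (-0.16, adjusted p = 0.017) and without C14R day 18 replicate 1 (-0.16, adjusted p = 0.035). LIN28B (chr6:104936616-105083332, plus strand) shares 67 exonic bases with LIN28B-AS1.

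Around LIN28B, 8 of 12 genes of let-7 processing and let-7 targets were tested, and 3 rose and 3 fell in WT and in C14R cells, while 4 rose and 3 fell in deletion cells. Their median changes were 0.03, 0.09 and 0.14, beside 0.03, 0.02 and 0.03 for all genes tested. Of all genes, 37.9 to 38.6% were higher and 34 to 35% lower in the 3 lines. IGF2BP2, an RNA-binding protein and let-7 target, fell from 2.95 to 0.0366 FPKM in WT (-1.93, limma adjusted p = 4.2e-13), and like MYC it passed the filter through its day 0 libraries alone. HMGA1, a chromatin protein, fell from 75.1 to 40.9 (-0.86, adjusted p = 3e-11). ZCCHC6 (TUT7), a terminal uridylyltransferase, rose from 9.8 to 15.2 (0.58, adjusted p = 8.3e-06) and DICER1 from 16.9 to 21.3 (0.31, adjusted p = 7.4e-05). LIN28A, TRIM71, HMGA2 and IGF2BP1 averaged under 1 FPKM and were not tested.

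**Figure D3:**
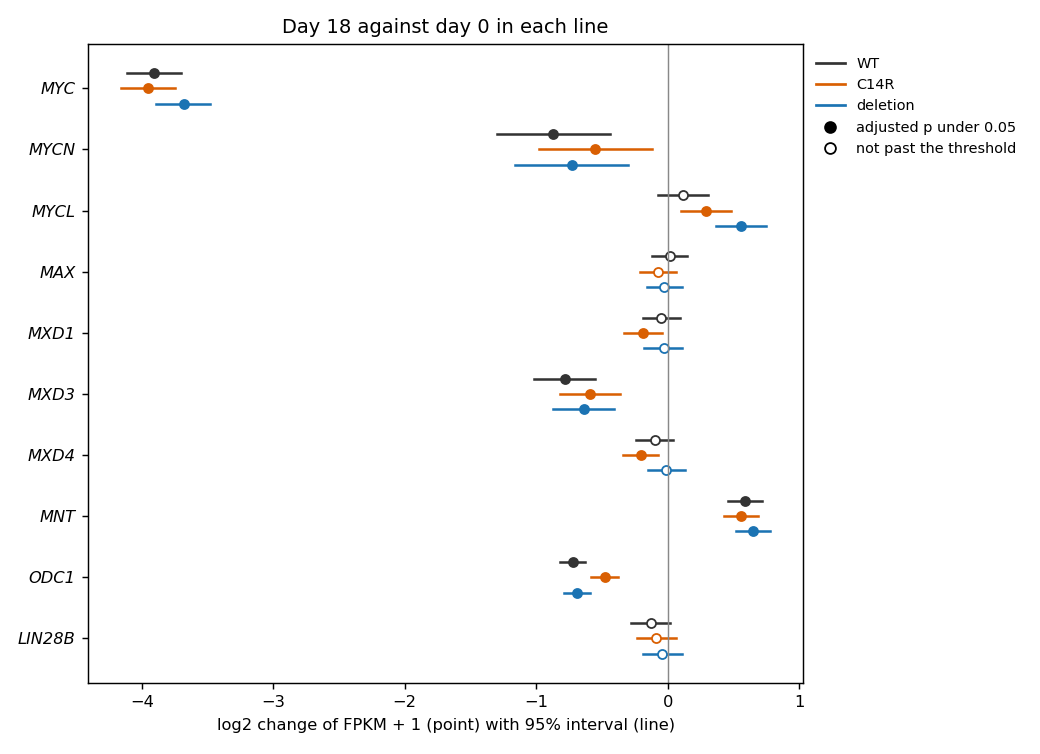
log2 change of FPKM + 1 from day 0 to day 18 (points) with 95% intervals from limma (lines) for each member in WT (black), C14R (orange) and deletion cells (blue); filled points passed an adjusted p of 0.05. MYC stands at -3.91 in WT, MNT is on the positive side, and MAX, MXD1, MXD4 and LIN28B lie no farther than 0.20 from 0, where the sign can change with the scaling.

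The order of levels changed accordingly. FPKM is per transcript length, so genes can be set beside each other. Exons shared with other genes, as given above for MXD3 and MNT among others, leave some places in the order uncertain. In WT at day 0 the mean FPKM ran ODC1 119, MAX 31.1, MYC 20.8, MXD3 11, MXD4 10.2, MNT 6.66, LIN28B 5.36, MXD1 4.46, MYCN 2.77 and MYCL 1.97. Only MXD3 and MXD4 overlapped as neighbours, as they did in C14R and deletion cells at day 0. In WT at day 18 it ran ODC1 71.6, MAX 31.6, MNT 10.5, MXD4 9.49, MXD3 5.98, LIN28B 4.81, MXD1 4.27, MYCL 2.23, MYCN 1.06 and MYC 0.451, with no overlap between neighbours. At day 18 MXD3 overlapped LIN28B and MYCL overlapped MYCN in C14R cells, and in deletion cells MXD4 overlapped MNT and MYCN overlapped MYC. MYC came after ODC1 and MAX at day 0 and last at day 18 in all 3 lines.

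The noncoding gene PVT1, beside MYC on the same strand (chr8:127794533-128101253), fell with it. Its WT mean went from 11.8 ± 1.48 to 3.31 ± 0.225 FPKM, a change of -1.57 (SE 0.17, limma adjusted p = 1.8e-07), with -1.82 in C14R and -1.86 in deletion cells (adjusted p = 2.7e-08 and 1.9e-08). MYCNUT, upstream of MYCN, was listed at no more than 0.0801 FPKM.

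Genes described in the literature as activated by MYC or MYCN fell as a group: 21 of 21 tested genes (of 22, TERT being under the filter) were lower at day 18 in each line. The list was drawn up with earlier results of these data known. For WT, C14R and deletion cells their median changes were -1.02, -1.07 and -1.15, beside 0.03, 0.02 and 0.03 for all genes tested. FBL, the box C/D snoRNP methyltransferase, went from 93.2 to 24.9 FPKM in WT (-1.88, limma adjusted p = 1.9e-11) and NME1, a nucleoside diphosphate kinase, from 272 to 82.1 (-1.72, adjusted p = 1.7e-12). Many of these genes serve ribosome assembly or DNA replication in any dividing cell, and whether their change depends on MYC was not tested.

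Genes described as repressed by MYC or MYCN were divided. Of 9 tested (of 10), 5 rose and 3 fell in WT and in C14R cells, and 4 rose and 3 fell in deletion cells. Their medians were 0.34, 0.27 and 0.15, beside 0.03, 0.02 and 0.03 for all genes tested. Of all genes, 37.9 to 38.6% were higher and 34 to 35% lower in the 3 lines, so these counts alone do not set the list apart. NDRG2 rose from 4.07 to 12 FPKM in WT (1.36, limma adjusted p = 5.4e-11) and NDRG1 from 3.76 to 10.6 (1.29, adjusted p = 9.1e-11), both known as differentiation-linked genes. Against the name of the list, CDKN1A, a cyclin-dependent kinase inhibitor and p53 target, fell from 127 to 18 FPKM (-2.75, adjusted p = 1.9e-14). So did GADD45A, a stress-induced p53 target, from 36.2 to 12.7 (-1.44, adjusted p = 1.3e-11).

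**Figure D4:**
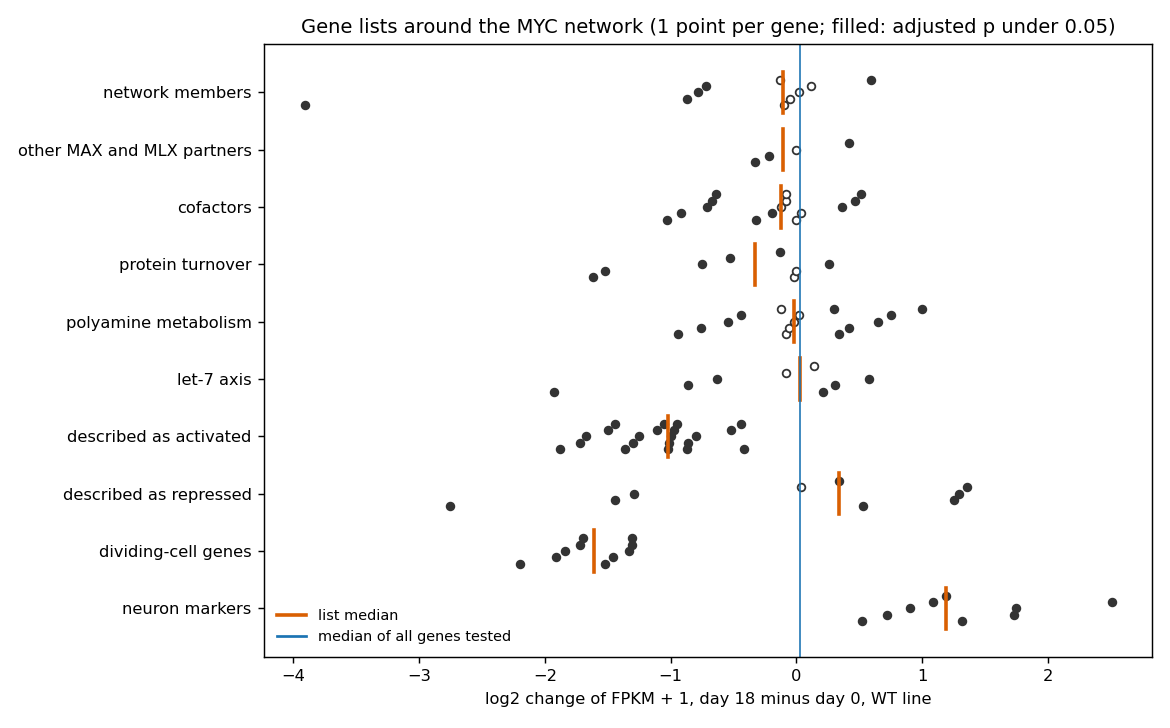
log2 change of FPKM + 1 from day 0 to day 18 in WT, 1 point per tested gene, by list; filled points passed an adjusted p of 0.05, orange bars are list medians and the blue line is the median of all genes tested. Genes described as activated by MYC lie to the left, around -1.02, and genes of dividing cells around -1.61, while polyamine and let-7 genes are spread on both sides.

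Other MAX and MLX partners moved little. Of 4 tested (of 5), 1 rose and 2 fell in each line, where 37.9 to 38.6% of all tested genes were higher and 34 to 35% lower. MXI1, the antagonist added to the sums above, rose from 21.2 to 28.7 FPKM in WT (0.42, limma adjusted p = 4.3e-05). MLX, the partner of the glucose-sensing MLXIP proteins, fell from 15.5 to 12.1 (-0.33, adjusted p = 1.9e-05), although its C14R fall was lost without small RNA genes. MGA, the scaffold of a MAX-containing repressor complex, fell from 31.9 to 27.3 (-0.22, adjusted p = 0.00057), a call that was lost in WT and C14R cells without small RNA genes and turned to 0.01 in deletion cells.

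Of 15 cofactors of MYC, MXD and MNT proteins, 3 rose and 7 fell in WT and in C14R cells, and 4 rose and 7 fell in deletion cells. Their median changes were -0.12, -0.14 and -0.06, beside 0.03, 0.02 and 0.03 for all genes tested. Of all genes, 37.9 to 38.6% were higher and 34 to 35% lower in the 3 lines. WDR5, which binds MYC and anchors it to chromatin, fell from 17.2 to 7.88 FPKM in WT (-1.03, limma adjusted p = 1.2e-10) and RUVBL2, an ATPase of the TIP60 complex, from 68.4 to 35.9 (-0.92, adjusted p = 3.1e-09). SIN3A and SIN3B, corepressor scaffolds, rose from 26.3 to 37.9 (0.51, adjusted p = 2.7e-08) and from 8.68 to 12.4 (0.47, adjusted p = 3.9e-05). HDAC1, a histone deacetylase that works with them and is named here after its value was seen, fell from 30.4 to 18.7 (-0.67, adjusted p = 9.8e-09), as it did in the other lines. Among 8 regulators of MYC or MYCN protein stability, 1 rose and 5 fell in WT, 4 fell in C14R cells, and 1 rose and 4 fell in deletion cells. The medians of these regulators were -0.33, -0.28 and -0.30. Their counts depend on the scale. Without small RNA genes all 8 were called in C14R and in deletion cells, counted in either direction. The median change of all genes was then 0.20 in C14R and 0.24 in deletion cells. AURKA, a mitotic kinase that stabilises MYCN protein, fell from 16.2 to 4.57 (-1.62, adjusted p = 9.5e-10) and SKP2, a ubiquitin ligase subunit that acts on MYC, from 27.9 to 9.12 (-1.52, adjusted p = 4e-12).

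Between the ZNHIT3 lines no member was called, at either day, nor was any gene of these lists. C14R against WT at day 0 gave 0 members (and 0% of all genes called), with 0 at an unadjusted p under 0.05. Deletion against WT at day 0 gave 0 (0.029% of all genes), with 2 at an unadjusted p under 0.05, MYCL and MXD4. C14R against WT at day 18 gave 0 (0.0363%), with ODC1 alone under 0.05 unadjusted, and deletion against WT at day 18 gave 0 (0.0725%), with MXD4 alone. C14R against deletion gave 0 at day 0 (0.058%), with 0 under 0.05 unadjusted, and 0 at day 18 (0.029%), with 2, ODC1 and MXD4. The C14R-by-day interaction called 0 members (0% of all genes) and the deletion-by-day interaction 0 (0.0145%), with 1 each under 0.05 unadjusted, ODC1 and MYCL. Only a fit with array weights gave other counts, 1 for C14R and 1 for deletion cells against WT at day 18.

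ODC1 at day 18 was higher in the 3 C14R libraries, at 79.3 to 84.5 FPKM, than in the 3 WT libraries, at 69.8 to 73.5. The difference of 0.19 (SE 0.05, 95% interval 0.09 to 0.29) had an unadjusted p of 0.00083 and a limma adjusted p of 0.13, and 0.21 with an adjusted p of 0.028 under array weights. Against deletion cells at day 18 it was 0.16 (adjusted p = 0.4), again with no overlap. The smaller day change in C14R than in WT, 0.24 (SE 0.07, 95% interval 0.11 to 0.38), did not pass (adjusted p = 0.65).

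MXD4 was higher in deletion than in WT libraries at both days with no overlap, by 0.14 at day 0 (limma adjusted p = 0.8) and 0.23 at day 18 (SE 0.07, 95% interval 0.09 to 0.36, adjusted p = 0.22, or 0.26 with 0.029 under array weights). Against deletion cells, C14R cells at day 18 stood at -0.33 (95% interval -0.47 to -0.19, adjusted p = 0.19). All 3 C14R libraries, at 7.77 to 9.31 FPKM, were below the 3 deletion libraries, at 11.1 to 11.3.

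MYCL at day 0 was lower in deletion than in WT libraries, 1.1 to 1.64 against 1.84 to 2.07 FPKM, a difference of -0.29 (95% interval -0.48 to -0.10, limma adjusted p = 0.76). At day 18 the deletion libraries were above those of WT (0.14, adjusted p = 0.57). The difference between the day changes was 0.43 (SE 0.13, 95% interval 0.17 to 0.70, adjusted p = 0.4), so the larger rise of MYCL in deletion cells is not shown to differ from that in WT.

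MYC itself was called in no comparison of lines. At day 0 the 95% intervals of its difference ran from -0.13 to 0.28 for C14R and from -0.22 to 0.19 for deletion cells against WT. At day 18 the deletion mean was 0.674 ± 0.168 against 0.451 ± 0.132 FPKM in WT, a difference of 0.20 (95% interval -0.00 to 0.41, limma adjusted p = 0.44) with overlapping libraries. For MYCN the intervals were wider, up to -0.20 to 0.65 for C14R against WT at day 18.

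**Figure D5:**
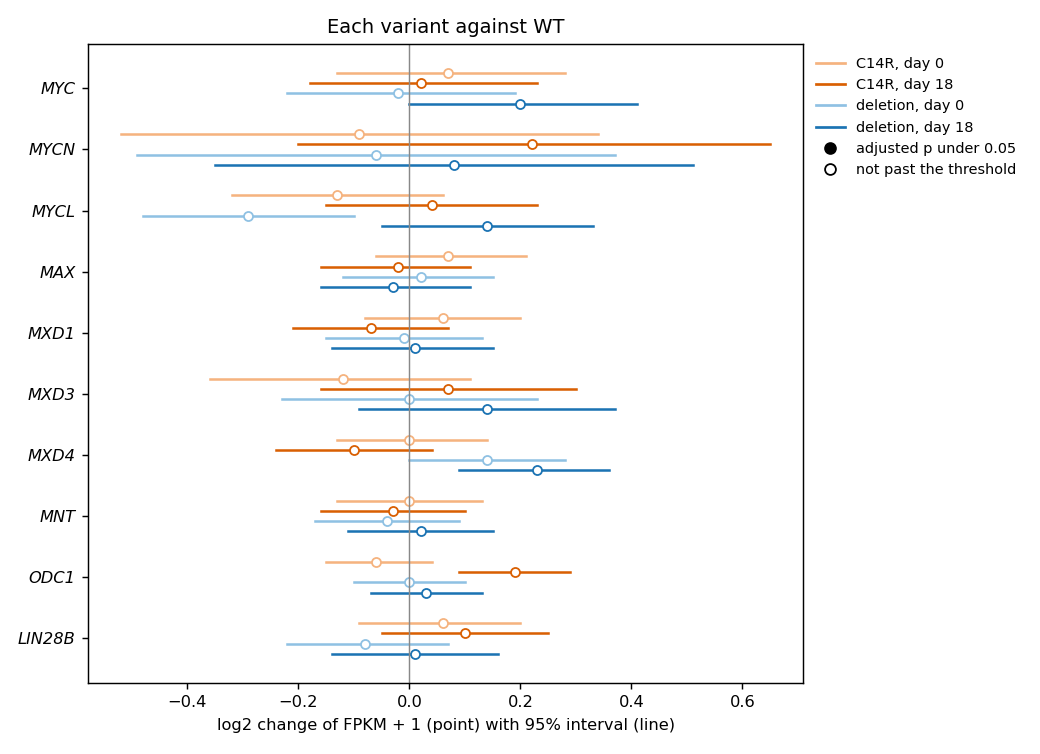
Differences of C14R (orange) and deletion cells (blue) from WT in log2(FPKM + 1) for each member, at day 0 (pale) and day 18 (dark), with 95% intervals from limma; open points did not pass an adjusted p of 0.05. All points are open, and the intervals that clearly leave out 0 are those of MYCL at day 0 and MXD4 at day 18 in deletion cells and of ODC1 at day 18 in C14R cells.

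Genes with the most similar pattern were found by the root mean square difference of log2(FPKM + 1) over the 18 libraries after centring each gene. Nearest to MYC was RORB (0.15), a nuclear receptor, against a spread of 1.93 for MYC itself. RORB went from 27.1 ± 0.396 to 1.09 ± 0.106 FPKM in WT. Nearest to MYCN (spread 0.43) were HAUS8 (0.17) and TBL3 (0.19), and nearest to ODC1 (spread 0.33) were ELAC2 (0.04) and the ribosomal protein gene RPL4 (0.06). For LIN28B (spread 0.09) the nearest was USP7 (0.05), and for MXD4 (spread 0.13) they were UBXN6 and CDIP1, both 0.07. All 18 libraries are shared between the genes, and the difference between days is part of the measure.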

How the data were processed

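RNA was sequenced after rRNA depletion from 18 libraries, 3 in each of 6 line-by-day groups. The values are gene-level FPKM as deposited by the authors, in 1 table of 26372 symbols. The submitters' processing notes name TopHat2, STAR, Cufflinks 2.2.1 and hg38, with no order. The strand setting is not given in the sources used here. The file holds no counts, so no count model was used. From these values log2(FPKM + 1) was tested with limma 3.58.1 in R 4.3.3 (a mean-variance trend, all 6 groups in 1 fit, no block), for 13785 genes with a mean of at least 1 FPKM, with Benjamini-Hochberg adjustment over all of them. The procedure was tested on simulated data. Positions come from GENCODE 29 on GRCh38 and promoter windows from RefSeq.

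The members and lists were chosen with earlier results of these data known. Named from each list are the 2 largest rises and 2 largest falls in WT among genes called in the same direction in all 3 lines, and for 5 members the 2 genes with the nearest pattern. Marker lists covered dividing, noradrenergic, neuronal, Schwann, mesenchymal, and blood and endothelial cells. From day 0 to 18 the summed median FPKM went from 927 to 1282 for noradrenergic markers, but the list was split. Of 9 tested, 3 rose and 4 fell in WT, 4 and 4 in C14R, and 4 and 3 in deletion cells. Their median changes were -0.03, 0.07 and 0.07. In WT, DBH rose from 64 to 445 FPKM and GATA2 fell from 98.8 to 26.1. The sum went from 1067 to 2288 for neuron markers and from 4.06 to 9.72 for Schwann cell markers (S100B from a mean of 1.53 to 5.39, SOX10 never above 0.477). For blood and vessel markers it went from 5.93 to 1.72, nearly all of it CD68 (5.91 to 1.68), with the other 4 under 0.1 on average. Alternatives changed the pseudocount, filter, scaling, variance model, block, libraries in the fit and each library in turn. A few genes that these rules would name are not reported here.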

Additional observations from a re-analysis of the deposited data

How the results depend on the processing

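Of the 110 member results (10 members in 11 comparisons), 10 alternatives gave 1052 values with the same call as reported (including neither past the threshold), 7 newly past the threshold, 6 no longer past it and 2 that turned direction and passed it. Leaving out single libraries gave 1969, 3 and 8 with 0 reversed. The number of members called from day 0 to 18 in C14R cells was 5 with a mean of at least 5 FPKM, where fewer members are tested, and 5 without small RNA genes, against 8. With array weights 1 member was called in C14R and 1 in deletion cells against WT at day 18. Without small RNA genes the day change in deletion cells reversed for MAX (0.19), MXD4 (0.20), MGA (0.01) and ZNHIT3 (0.22), the last also under quantile normalization (0.22). Without small RNA genes all 8 stability regulators were called in C14R and all 8 in deletion cells, counted in either direction. On that scale 66.2 and 69.3% of all called genes were higher, and the median change of all genes was 0.20 and 0.24. The family sums were then 58, 60.1 and 54.8 at day 0 and 9.82, 11.1 and 11.6 at day 18, and the antagonist sums 73.5, 73, 74.3, 79.5, 77.5 and 85.9, by the rescaling itself. With MXI1 added after seeing the data the antagonist sums were 53.5, 51.8, 53.2, 58.9, 57.8 and 60.9, and the ratios 0.477, 0.503, 0.46, 0.0636, 0.0734 and 0.0728. ZNHIT3 in C14R against WT at day 0 was called with array weights (-0.35), with only those libraries (-0.34) and without C14R day 18 replicate 2, and ranged from -0.36 to -0.33 over single libraries left out. At day 18 it was not called with only those libraries (-0.83), and its C14R interaction was called with array weights (-0.52) and without C14R day 18 replicate 2, ranging from -0.59 to -0.43. Its difference between C14R and deletion cells at day 0 ranged from 0.46 to 0.50 and was lost without C14R day 0 replicate 1 or 3 or deletion day 0 replicate 3. For these the cause was not tested.

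No general pairing of libraries by replicate number was seen: 9 of 45 same-number pairs had a correlation of their deviations over 0.1 (range -0.48 to 0.21), and 14 of 45 were highest with their own number. Deviations from means of 3 libraries cannot exclude a pairing between some of the groups. With the replicate block the count of members called between days was 5 (WT), 8 (C14R) and 6 (deletion), as without it, and 0 in each comparison of lines and in both interactions. The MYC change in WT was -3.91 with the block.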

Other observations

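Host genes of microRNAs tied to the network were looked at after their values were seen. MIR17HG, the host of the miR-17-92 cluster and a known MYC target, read 11.2 ± 0.43 FPKM (SD, n = 3) in WT at day 0 and 3.31 ± 0.183 at day 18, a change of -1.50 (SE 0.10, limma adjusted p = 3.5e-10). It fell by 1.49 on the log2 scale in C14R and by 1.26 in deletion cells, and the days did not overlap in any line. MIRLET7BHG, a host gene of let-7 microRNAs, also fell, from 5.14 ± 0.167 to 1.74 ± 0.174 FPKM in WT (-1.16, adjusted p = 5.4e-09), with -1.12 in C14R and -1.05 in deletion cells. Each of the 11 let-7 hairpin genes was at 0 in every library, so these libraries give no value for let-7 itself.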
